A study of Arabidopsis thaliana with 12 samples.

Results

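The genes raised in gun1-1 alone are 99 of the 37663 nuclear Arabidopsis genes in the deposited tables. They were chosen on the measured values. The transcript with the largest mean FPKM (fragments corrected for transcript length and for the mapped total) stood for its gene. With L defined as the log2 of mutant FPKM plus 1 over Col-0 FPKM plus 1, a gene was kept where L was at least 1 in gun1-1 and between -0.3 and 0.3 in both gun4-1 and gun5-1. Its highest FPKM had to reach 5, which 15159 genes did. Since all 3 contrasts entered this choice, the levels and calls of the 99 genes are a description and carry no test.

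The study measured RNA of 4 genotypes on norflurazon: the wild type, Col-0, and mutants gun1-1, gun4-1 and gun5-1, all in the Col-0 background, with 3 libraries each and 12 in all. Seedlings of every genotype, Col-0 included, grew for 5 d at 100 µE of light on medium with 5 µM norflurazon, so no values without the herbicide enter here. Sample labels give the whole seedling as source, whereas the series text speaks of leaf RNA. The treatment text also mentions gun5-1 seedlings given piperonylic acid, which the labels of the 3 gun5-1 libraries used here do not list. The 3 tables hold a single combined FPKM per genotype, so neither the spread between libraries nor the depth is known, and every value below is such a group value of n = 3. The same Col-0 libraries stand in all 3 comparisons. Col-0 levels printed below are those of the comparison with gun1-1. Col-0 read 1.07 times as high beside gun4-1 and 0.984 times beside gun5-1. A small difference in printed level can therefore differ in sign from L, which uses the Col-0 value of its own comparison.

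Norflurazon blocks carotenoid synthesis, and in the light the developing plastids bleach. Signals from damaged plastids then keep nuclear photosynthesis genes low, and the gun (genomes uncoupled) mutants keep these genes more active. GUN1 is a plastid pentatricopeptide repeat protein that binds to proteins of plastid gene expression, import and tetrapyrrole synthesis. GUN4 and GUN5 act at magnesium chelatase, the first enzyme of the chlorophyll branch: GUN5 is its H subunit, CHLH, and GUN4 a protein that stimulates it.

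The 99 genes fell into a pair of unlike sets. In 48 genes the FPKM was above 0 in every genotype. The other 51 were listed at exactly 0 in Col-0, gun4-1 and gun5-1 and had 5.05 to 4059.5 FPKM in gun1-1. The 48 measured genes included 44 protein-coding genes, 3 long non-coding RNAs and 1 pseudogene, and their longest reference transcripts had a median of 1472.5 bases, beside 1650 over the 15159 genes. The 51 included 11 protein-coding genes, and all of them had transcripts of 83 to 267 bases.

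By the same thresholds 27 genes were lowered in gun1-1 alone, 54 were raised and 13 lowered in gun4-1 alone, and 61 were raised and 20 lowered in gun5-1 alone. Genes listed at 0 on the lower side made up 47 of the 54 and 51 of the 61. Without them, 48 genes were raised in gun1-1 alone, 7 in gun4-1 alone and 10 in gun5-1 alone. L reached 1 in gun1-1 in 7.13% of the 15159 genes, in gun4-1 in 1.87% and in gun5-1 in 5.74%. It lay within 0.3 in 48.9% of them in gun1-1, 68.9% in gun4-1 and 52.0% in gun5-1. Among the 6388 genes with L within 0.3 in both gun4-1 and gun5-1, 99 had L of at least 1 in gun1-1, and 57 more lay between 0.8 and 1.

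**Figure D1:**
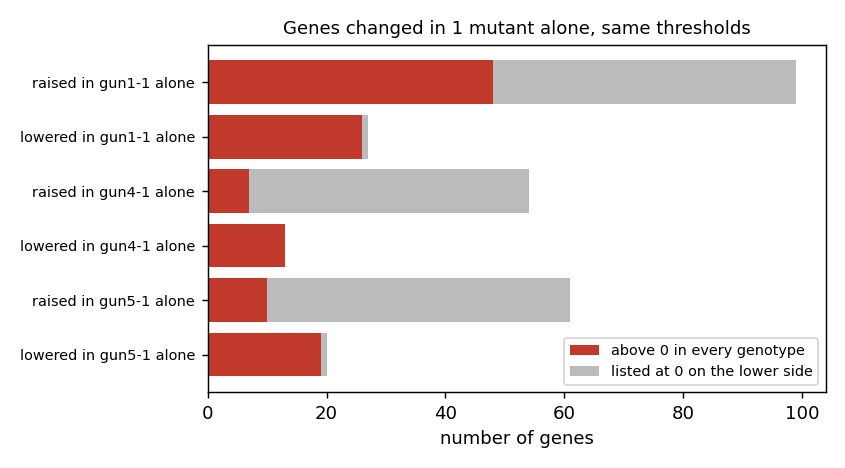
Number of genes changed in 1 mutant alone by the same thresholds, for each mutant and direction. Red bars count genes above 0 FPKM in every genotype, and grey bars genes listed at 0 on the lower side; the red part of the upper bar holds 48 genes and its grey part 51.

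Within the 48 measured genes the levels in gun1-1 ran from 5.20 to 429 FPKM, with a median of 24.1, against 1.04 to 195 FPKM and a median of 9.51 in Col-0. L in gun1-1 ran from 1.02 to 3.27 with a median of 1.17, and 25 of the 48 lay under 1.2, close to the threshold. Over the 15159 genes the median L was 0.01. Only 3 of the 48 reached an L of 2. In gun4-1 L was above 0 in 23 genes and below 0 in 25, with a median of -0.02, and in gun5-1 it was above 0 in 38 and below 0 in 10, with a median of 0.15.

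By the authors' deposited table, 41 of the 48 were higher in gun1-1 with q under 0.05, beside 18.8% of all tested nuclear genes, a count that the choice of genes builds in. The 7 that were not are MPL1, AT1G52630, AT4G04360, AT1G23995 and the 3 long non-coding RNAs AT5G01375, AT4G08775 and AT3G07105. For gun4-1, 0 of the 47 genes tested passed, beside 8.0% higher and 5.94% lower of all tested genes. For gun5-1, 1 of 46 passed, AT5G36160, with q = 0.0492, beside 16.2% higher and 13.2% lower. The window set on L in gun4-1 and gun5-1 builds in these low counts as well, so nothing is read from them.

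**Figure D2:**
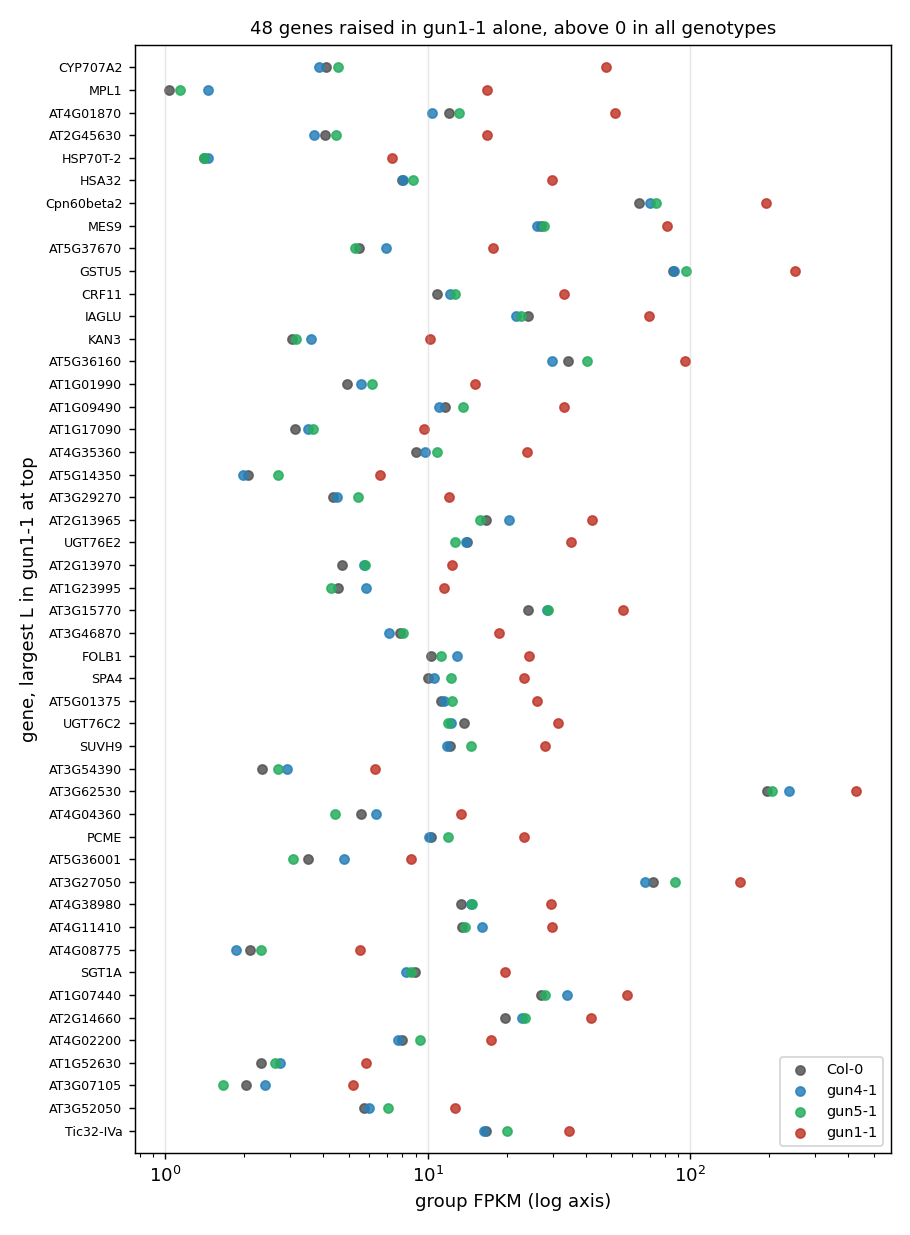
Group FPKM (log axis) of the 48 genes above 0 in all genotypes, ordered by L in gun1-1 with the largest at the top; each point is the combined value of 3 libraries in the gun1-1 table for Col-0 and gun1-1 and in the tables of gun4-1 and gun5-1 for those mutants. The gun1-1 point lies to the right of the others in every row, as the choice of genes fixes, and the distance is largest for CYP707A2 and MPL1.

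The largest L among the 48 belonged to CYP707A2 (AT2G29090; chromosome 2, 12494826 to 12499723, minus strand, TAIR10.1), a cytochrome P450 that inactivates abscisic acid by 8'-hydroxylation and is known for its part in seed germination. It stood at 4.09 FPKM in Col-0, 48.0 in gun1-1, 3.87 in gun4-1 and 4.58 in gun5-1. Col-0, gun4-1 and gun5-1 thus lay within 1 FPKM of one another, and gun1-1 was 11.7 times as high as Col-0. The log2 fold change in the authors' deposited table was 3.55, with an error implied by their test of 0.77 and q = 0.000376. Of the 3 genes tested among the 4 of its family, CYP707A2 was the single one with q under 0.05 in gun1-1: CYP707A1 had an L of -0.26 and CYP707A3 of -0.23. Over all tested genes 18.8% were higher and 14.8% lower in gun1-1. CYP707A2 was chosen for its L, which builds in its call. With the FPKM of its 5 transcripts summed, L of CYP707A2 was 2.54 in gun1-1, -0.54 in gun4-1 and 0.06 in gun5-1, so that in gun4-1 it left the window of 0.3.

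MPL1 (AT5G14180), a lipase named for its induction by the aphid Myzus persicae, came next. Its main transcript stood at 1.04 FPKM in Col-0, 16.9 in gun1-1, 1.46 in gun4-1 and 1.14 in gun5-1, a ratio of 16.3 between gun1-1 and Col-0. The authors' deposited table gave a log2 fold change of 4.02 with an implied error of 2.19 and q = 0.179. A second transcript of MPL1 stood at 2.97 FPKM in Col-0 and 8.27 in gun1-1, with q = 0.000376 in that table, and at 1.82 in gun4-1 and 1.11 in gun5-1. With the FPKM of its transcripts summed, L of MPL1 was 2.35 in gun1-1, -0.37 in gun4-1 and -0.66 in gun5-1. Summed in this way, MPL1 left the window in both gun4-1 and gun5-1. The third gene with L above 2 was AT4G01870, annotated as a tolB-like protein, at 12.1 FPKM in Col-0, 51.9 in gun1-1, 10.4 in gun4-1 and 13.2 in gun5-1. AT2G45630, a D-isomer specific 2-hydroxyacid dehydrogenase, followed with 4.07, 16.9, 3.70 and 4.48 FPKM in the same order of genotypes.

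The genes below are ordered by annotated role for reading only, an order chosen after their values were seen; none of 35 gene lists matched by symbol or product name held 3 or more of the 48. A chaperone list of 235 genes at 5 FPKM or more held 2 of the 99 genes, Cpn60beta2 and AT5G37670, both measured. Over all 15159 genes at that level 99, or 0.653%, were members, and 48 were measured members. HSP70T-2 and HSA32 were not on that list and are set here by their annotated role. HSP70T-2 (AT2G32120), a truncated member of the HSP70 chaperones, stood at 1.41 FPKM in Col-0, 7.32 in gun1-1, 1.46 in gun4-1 and 1.41 in gun5-1. HSA32 (AT4G21320), a heat-stress-associated protein that prolongs acquired thermotolerance, had 7.97 FPKM in Col-0, 29.7 in gun1-1, 8.09 in gun4-1 and 8.79 in gun5-1. AT5G37670, an HSP20-like chaperone, had 5.48, 17.8, 6.93 and 5.29 FPKM in that order. For all 3 the highest of the other genotypes stayed well under the gun1-1 value. Their log2 fold changes in gun1-1 in the authors' deposited table were 2.38 (implied error 0.80, q = 0.0146), 1.90 (0.29, q = 0.000376) and 1.70 (0.38, q = 0.000376).

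Cpn60beta2 (AT3G13470), a subunit of the plastid chaperonin that folds imported proteins, was more abundant, with 63.9 FPKM in Col-0, 195 in gun1-1, 70.0 in gun4-1 and 74.1 in gun5-1. None of the other 5 chaperonin subunit genes met the selection. CPN60B had L of 0.82 in gun1-1, 0.46 in gun4-1 and 1.18 in gun5-1, and CPN60A had 0.67, 0.29 and 0.56. Cpn60beta4 had 1.12, 0.11 and 0.69, while in gun1-1 Cpn60beta3 had -0.82 and Cpn60alpha2 -0.83. By the authors' q Cpn60beta4 was, like Cpn60beta2, higher in gun1-1 and not called in gun4-1 or gun5-1. In gun5-1 that q was 0.0758 for Cpn60beta4 and 0.0775 for Cpn60beta2. Whether these genes differ in gun5-1 was not tested. Of the 6 subunits, 4 were thus higher and 2 lower in gun1-1 by the authors' q, beside 18.8% and 14.8% of all tested genes. The 4 include Cpn60beta2, which was chosen for its L. SGT1A (AT4G23570), a co-chaperone of HSP90 known from plant immunity, stood at 8.97 FPKM in Col-0, 19.8 in gun1-1, 8.28 in gun4-1 and 8.65 in gun5-1, and its close relative SGT1B had an L of -0.07 in gun1-1.

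A list of 35 genes named as heat-shock proteins or heat-stress factors was matched by symbol. It held 26 genes at 5 FPKM or more and 1 member, HSP70T-2. Over all genes at that level 0.653% were members, and nothing is read from the 1. In gun1-1, 15 of 30 tested were higher and 3 lower, beside 18.8% higher and 14.8% lower of all tested genes, and the median L of the list was 0.56. The 15 include HSP70T-2, which was chosen for its L. In gun4-1, 2 were higher and 6 lower of 29, and in gun5-1, 2 were higher and 10 lower of 28, with medians of -0.13 and -0.19; over all tested genes 8.0% were higher and 5.94% lower in gun4-1, and 16.2% and 13.2% in gun5-1. HSP70, the strongest, had L of 2.71 in gun1-1, -1.86 in gun4-1 and -2.15 in gun5-1, and HSP90.1 had 1.55, -1.68 and -1.92. HSP101, the disaggregase that acts together with HSA32 in heat memory, came closer to the members with 1.83, -0.33 and -0.26, outside the window in gun4-1 by a small margin. HSFA1E, a heat-stress factor, was flat in gun4-1 at -0.13 and in gun5-1 at 0.00, but its 0.84 in gun1-1 fell short of 1. The symbol match also took in HSPRO2, a gene named for nematode resistance in beet, and HSP1, which need not be heat-shock genes. The HSP20-like chaperone genes, AT5G37670 among them, were counted apart. Of 24 tested, 7 were higher and 2 lower in gun1-1, with a median L of 0.09. The 7 include AT5G37670, which was chosen for its L.

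**Figure D3:**
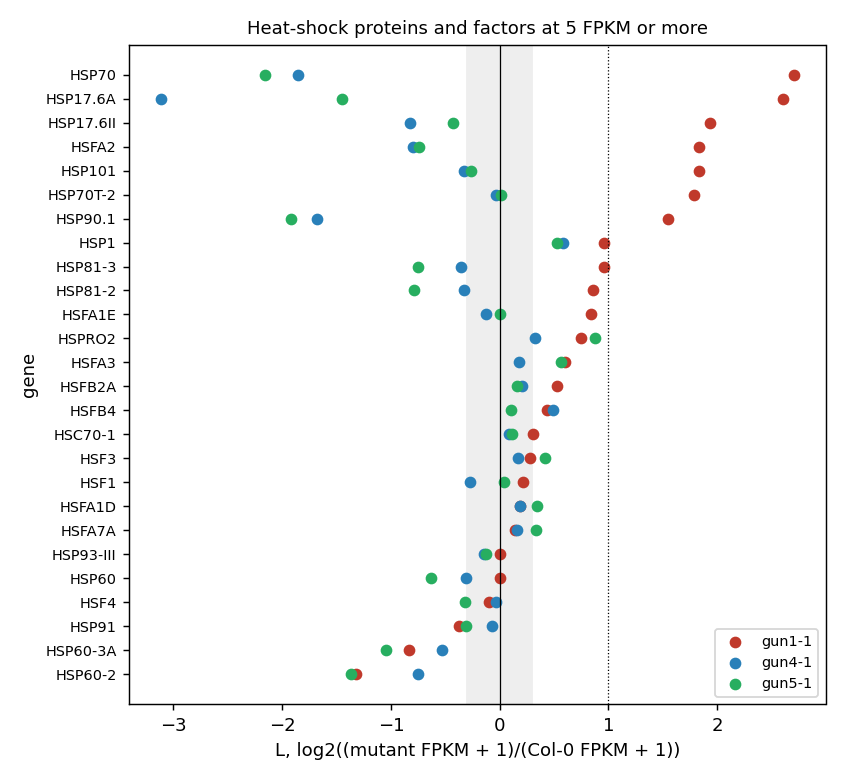
L of the 26 heat-shock list genes with a top FPKM of 5 or more, 1 row per gene, in gun1-1 (red), gun4-1 (blue) and gun5-1 (green). The grey band marks L within 0.3 and the dotted line L = 1; HSP70T-2 is the 1 gene with its red point beyond the line and both other points inside the band.

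The 250 bases upstream of the annotated starts of these chaperone genes and of CYP707A2 are shown to let the upstream sequences be read beside the levels. They were taken from the RefSeq TAIR10.1 genome, 5′ to 3′ on the gene's strand: chr2:13653946-13654195 (minus) for HSP70T-2, chr4:11340112-11340361 (plus) for HSA32, chr3:4388965-4389214 (plus) for Cpn60beta2, chr5:14968508-14968757 (plus) for AT5G37670 and chr2:12499724-12499973 (minus) for CYP707A2. Capitals mark the site II letters TGGGCC, or their complement GGCCCA, in the first 3, and the TATA box letters TATAAA, or their complement TTTATA, in the last 2.
HSP70T-2: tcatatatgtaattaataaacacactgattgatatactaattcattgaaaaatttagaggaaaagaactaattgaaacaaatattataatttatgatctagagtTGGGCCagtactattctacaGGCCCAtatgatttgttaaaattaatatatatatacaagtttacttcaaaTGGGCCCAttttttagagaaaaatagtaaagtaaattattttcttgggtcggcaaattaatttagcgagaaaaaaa
HSA32: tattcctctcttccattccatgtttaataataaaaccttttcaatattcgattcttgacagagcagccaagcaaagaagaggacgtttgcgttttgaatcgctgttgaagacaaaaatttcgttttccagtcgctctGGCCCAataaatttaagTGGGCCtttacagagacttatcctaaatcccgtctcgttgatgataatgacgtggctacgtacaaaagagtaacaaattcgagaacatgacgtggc
Cpn60beta2: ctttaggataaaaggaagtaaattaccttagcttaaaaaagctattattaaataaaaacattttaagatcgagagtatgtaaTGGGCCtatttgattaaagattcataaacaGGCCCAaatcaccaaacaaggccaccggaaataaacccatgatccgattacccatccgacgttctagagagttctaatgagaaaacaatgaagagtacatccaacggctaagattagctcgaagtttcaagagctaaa
AT5G37670: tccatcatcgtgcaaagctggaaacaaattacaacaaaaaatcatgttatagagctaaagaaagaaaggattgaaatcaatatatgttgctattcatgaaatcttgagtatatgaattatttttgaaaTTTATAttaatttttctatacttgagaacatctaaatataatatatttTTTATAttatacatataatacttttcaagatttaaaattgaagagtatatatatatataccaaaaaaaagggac
CYP707A2: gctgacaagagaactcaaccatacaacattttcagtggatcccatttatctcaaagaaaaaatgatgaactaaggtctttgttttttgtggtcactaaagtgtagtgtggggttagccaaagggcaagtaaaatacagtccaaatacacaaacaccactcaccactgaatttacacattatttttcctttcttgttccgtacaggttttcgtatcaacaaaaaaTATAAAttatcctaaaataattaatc
HSP70T-2 held 4 site II matches, an overlapping pair in opposite directions among them, and HSA32 and Cpn60beta2 held 2 each, 1 in each direction. AT5G37670 held 2 TATA box matches on the complementary strand and CYP707A2 held 1, from 26 to 21 bases before its start.

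A search on both strands for 18 motifs set the 48 upstream windows beside those of 15158 genes. Site II (TGGGCC) was in 14.6% of the 48 and 17.5% of the 15158, and the TATA box (TATAAA) in 45.8% and 45.0%. The I-box (GATAAG), known from light-regulated promoters, was in 11 of the 48, or 22.9%, beside 12.9%. The CCA1 site (AAAAATCT), named after a clock factor, was in 8, or 16.7%, beside 6.66%, among them IAGLU, MES9 and CRF11. The G-box (CACGTG) was in 1, UGT76E2, beside 7.37%, and the ACGT core that it contains in 33.3% beside 43.6%. The heat-shock element was searched only in a strict form, with all of its repeat units in a row. That form was in 0 of the 48 and 0.4% of all. Shorter forms were not counted, so the 0 does not show that heat-shock-element sequence is absent. The mitochondrial dysfunction motif was in 0 of the 48 and 0.51% of all. These are matches of letters in a short window and were not tested.

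The remaining motifs were as follows. The TGA site (TGACG) was in 16.7% of the 48 beside 19.2%, the W-box (TTGACC) in 8.33% beside 11.8%, and the GCC box (GCCGCC) in 4.17% beside 2.01%. The CCAAT box (CCAAT) was in 39.6% beside 48.5%, the GT1-like core (GGTTAA) in 14.6% beside 15.3%, and the telo box (AAACCCTA) in 6.25% beside 3.53%. The auxin response element (TGTCTC) was in 6.25% beside 10.6%, and the drought response element (GCCGAC) in 2.08% beside 3.01%. The evening element (AAAATATCT) and the E2F site (TTCCCGCC) were in 0 of the 48, beside 2.36% and 0.47%. Base composition was alike, with a median GC content of 32.6% in the 48 windows and 31.6% in all.

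A list of 80 UDP-glycosyltransferases at 5 FPKM or more held 2 of the 99 genes, UGT76C2 and UGT76E2, both measured. Over all 15159 genes at that level 99, or 0.653%, were members, and 48 were measured members. IAGLU (AT4G15550) was not on that list and is annotated as a glucosyltransferase of the auxin indole-3-acetate. It stood at 24.1 FPKM in Col-0, 70.0 in gun1-1, 21.7 in gun4-1 and 22.8 in gun5-1. UGT76C2 (AT5G05860), which glucosylates cytokinins on the ring nitrogen, had 13.8, 31.5, 12.3 and 11.9 FPKM. UGT76E2 (AT5G59590), of the same family, had 14.1, 35.1, 14.0 and 12.7 FPKM. In these 3 glucosyltransferases both gun4-1 and gun5-1 lay slightly under Col-0. A further family member, UGT76E11, had a larger L of 2.50 in gun1-1 but also 1.05 in gun5-1 and so was not a member. Of 7 tested genes of the UGT76 family 3 were higher in gun1-1 and 0 lower, beside the 18.8% and 14.8% of all tested genes. The 3 are UGT76E11 and the members UGT76C2 and UGT76E2, which were chosen for their L in gun1-1. The choice of genes thus builds in most of that count. The neighbouring and similar gene UGT76E1 was near 0, with 0.0618 FPKM in Col-0 and 0.181 in gun1-1, and how the authors' counting divided reads between the pair is not given in the sources used here.

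MES9 (AT4G37150), an esterase of methylated hormones such as methyl salicylate, stood at 27.1 FPKM in Col-0, 81.3 in gun1-1, 26.0 in gun4-1 and 27.8 in gun5-1. GSTU5 (AT2G29450), a tau-class glutathione transferase of detoxification, was among the most abundant members, with 85.9, 249.8, 86.4 and 96.7 FPKM. For both, Col-0, gun4-1 and gun5-1 were close together and gun1-1 was about as far above them, 3.01 and 2.91 times the Col-0 level. Of 21 tested GSTU genes, 6 were higher and 6 lower in gun1-1, beside 18.8% and 14.8% of all tested genes. The 6 higher include GSTU5, which was chosen for its L. The family median L was -0.10. AT5G36160, annotated as a tyrosine transaminase, had 34.2 FPKM in Col-0, 95.8 in gun1-1, 29.7 in gun4-1 and 40.5 in gun5-1, and with L of -0.30 and 0.26 it lay near both edges of the window. AT1G09490, AT4G11410 and AT1G07440, all of the NAD(P)-binding Rossmann-fold superfamily, had L of 1.43, 1.08 and 1.06 in gun1-1. PCME (AT5G15860), a prenylcysteine methylesterase, stood at 10.3 FPKM in Col-0 and 23.2 in gun1-1, and FOLB1 (AT3G11750), an aldolase of folate synthesis, at 10.3 and 24.2. AT4G35360, annotated as a pantothenate kinase of coenzyme A synthesis, had 9.03 and 23.9.

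The lists of WRKY, NAC, MYB and bHLH factors, with 27, 44, 57 and 62 genes at 5 FPKM or more, held 0 of the 99. That of ethylene response factors, with 33, held 1, a measured gene. Over all 15159 genes at that level 99, or 0.653%, were members, and 48 were measured members. Nothing is read from these counts. CRF11 (AT3G25890), an AP2/ERF-type factor named as a cytokinin response factor, stood at 10.9 FPKM in Col-0, 32.9 in gun1-1, 12.1 in gun4-1 and 12.7 in gun5-1. KAN3 (AT4G17695), of the KANADI factors that set the lower side of leaves, had 3.05, 10.2, 3.59 and 3.16 FPKM. It was the single KANADI gene of 4 tested with q under 0.05 in gun1-1, the other 3 having L between -0.29 and 0.20. KAN3 was chosen for its L, which builds in its call, and over all tested genes 18.8% were higher and 14.8% lower. SUVH9 (AT4G13460), which acts in RNA-directed DNA methylation, had 12.2, 28.0, 11.8 and 14.6 FPKM, and its close relative SUVH2 had an L of -0.01 in gun1-1. AT3G54390, annotated as a DNA-binding factor, had 2.34, 6.32, 2.92 and 2.70 FPKM.

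SPA4 (AT1G53090), a partner of the ubiquitin ligase COP1 that represses light signalling, stood at 9.99 FPKM in Col-0, 23.4 in gun1-1, 10.6 in gun4-1 and 12.2 in gun5-1. Its relatives SPA1, SPA2 and SPA3 had smaller L of 0.54, 0.48 and 0.74 in gun1-1. All 4 SPA genes were higher in gun1-1 with q = 0.000376 in the authors' deposited table, beside 18.8% of all tested genes. For SPA4 the choice of genes builds this in. In gun4-1 or gun5-1, 0 of the 4 had q under 0.05, which for SPA4 the choice of genes also favours. Over all tested genes 8.0% were higher and 5.94% lower in gun4-1, and 16.2% and 13.2% in gun5-1. In gun5-1 SPA3 had an L of 0.42, outside the window, with q = 0.0612. Whether the mutants differ in the 3 relatives was not tested. SPA4 itself had 6 transcripts in the tables, and with these summed its L in gun1-1 was 0.72.

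Tic32-IVa (AT4G23430), of a dehydrogenase family named after the plastid import apparatus, stood at 16.6 FPKM in Col-0, 34.7 in gun1-1, 16.4 in gun4-1 and 20.1 in gun5-1, and was the member closest to the threshold with L of 1.02. Of 170 genes at 5 FPKM or more whose product name holds chloroplast or plastid, 0 were members, beside 0.653% of all genes at that level, so nothing is read from the 0. The most abundant measured member was AT3G62530, an ARM repeat protein, with 195 FPKM in Col-0, 429 in gun1-1, 237 in gun4-1 and 205 in gun5-1. AT3G27050, of unnamed function, had 71.9, 155, 67.3 and 87.2 FPKM. A pair of pentatricopeptide repeat genes, AT5G14350 and AT3G46870, had L of 1.30 and 1.16 in gun1-1, and a pair of RING/U-box genes, AT3G29270 and AT5G36001, 1.29 and 1.10.

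Just inside the threshold were AT3G52050, a 5'-3' exonuclease, and AT3G07105, both at L of 1.03, beside Tic32-IVa. Just outside it were AT3G45050 and AT4G39235, both at 0.99, and AT3G48800, a SAM-domain protein, also at 0.99. AT3G45050 stood at 28.4 FPKM in Col-0 and 57.5 in gun1-1. The members at the lower edge and their neighbours outside thus differed by a few hundredths of a log2 unit.

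Splitting by transcript bears on some members. In 23 of the 48 genes the tables hold a single transcript. With the FPKM of all transcripts summed, 41 of the 48 kept L of at least 1 in gun1-1 and 32 met all conditions. AT1G52630, of the O-fucosyltransferase family, fell to an L of 0.05: its main transcript stood at 2.32 FPKM in Col-0 and 5.81 in gun1-1, and its other transcript at 3.26 and 0.00645. SGT1A fell to 0.73, AT3G52050 to 0.69 and AT3G54390 to 0.68. HSA32, Cpn60beta2, MES9, GSTU5, IAGLU, KAN3, UGT76C2 and UGT76E2 have 1 transcript each and were not affected.

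By chromosome, the 48 genes were spread 7, 7, 11, 14 and 9 over chromosomes 1 to 5. Chromosome 4 held 29.2% of them and 15.3% of the 15159 genes, and chromosome 1 held 14.6% and 25.8%. On chromosome 2, where GUN1 lies at 13386954 to 13390854, the nearest member was HSP70T-2, 260588 bases away, followed by GSTU5 at 761164 and CYP707A2 at 887231 bases. AT2G13970, a pseudogene, and AT2G13965 were the 1 adjacent pair among the 48. They overlap on opposite strands of chromosome 2 (5862536 to 5864801 and 5864267 to 5864614), stood at 4.71 and 16.7 FPKM in Col-0 and at 12.4 and 42.1 in gun1-1, and their reads cannot be told apart without strand. In all, 16 of the 48 overlap another annotated gene, or 33.3%, beside 34.7% of the 15159, and HSA32, Cpn60beta2, IAGLU and SPA4 are among them.

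The 51 genes listed at 0 outside gun1-1 held the 20 largest L of the whole set, which rest on the added 1 FPKM and give no fold change. They comprised 20 long non-coding RNAs, 11 protein-coding genes, 5 antisense RNAs, 4 snoRNAs, 4 miscellaneous RNAs, 2 snRNAs, 2 other non-coding RNAs, 2 transcribed pseudogenes and 1 microRNA precursor, MIR319b (AT5G41663). Only 3.21% of the 15159 genes have a longest transcript under 300 bases, but all of these do. At the top was the snoRNA AT5G08525, 83 bases long, with 4059.5 FPKM in gun1-1, and then the spliceosomal U5.1b (AT3G08605) with 3789.9 and the antisense RNA AT2G09395 with 1987. The snoRNAs AT1G04223, AT4G06305 and AT3G04175 had 1076, 809 and 776 FPKM, and the protein-coding AT2G12461 and AT3G44704 had 863 and 434. Below these lay the antisense RNA AT3G04685 at 353, U1.5 (AT1G08115) at 176, MIR319b at 107 and AT1G08253 at 74.0 FPKM. The next 8, from AT4G09585 at 62.4 FPKM over AT5G08840, AT3G04355, AT2G09965, AT4G03685, AT3G00640 and AT5G28462 to AT4G05690 at 34.8, had transcripts of 184 to 203 bases.

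Such short genes were about as many in the other genotypes. With 5 FPKM or more in 1 genotype and 0 in the other 3, there were 57 genes for Col-0, 51 for gun1-1, 47 for gun4-1 and 51 for gun5-1, and 55, 51, 45 and 51 of them had transcripts under 300 bases. In all 4 genotypes the FPKM of such genes fell as the transcript lengthened, with Spearman's rho of -0.90, -0.95, -0.89 and -0.98 across genes of 1 table, a description that shares the length correction in FPKM. AT2G02525 and AT2G07960, both 207 bases long, were both listed at 18.7 FPKM in gun1-1, and AT2G25687 and AT5G04525, both 243 bases long, at 5.55. Of the 7 lengths shared by 2 or more of the 51 genes, only these 2 had FPKM within 1%. AT3G01755 and AT3G02055, both 237 bases long, stood at 11.4 and 5.69 FPKM. Of the 51, 4 had been tested by the authors and 0 had q under 0.05. Of the 51, 28 overlap another annotated gene, or 54.9%, and the median L in gun1-1 of the 14 overlapped genes at 5 FPKM or more was 0.07. Examples, chosen after their values were seen, are MBF1C, a heat-stress coactivator, at 1.53, FER1, a ferritin gene, at 0.62, PHB4, a prohibitin, at -0.87 and ABCB4, an auxin transporter, at -1.35.

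**Figure D4:**
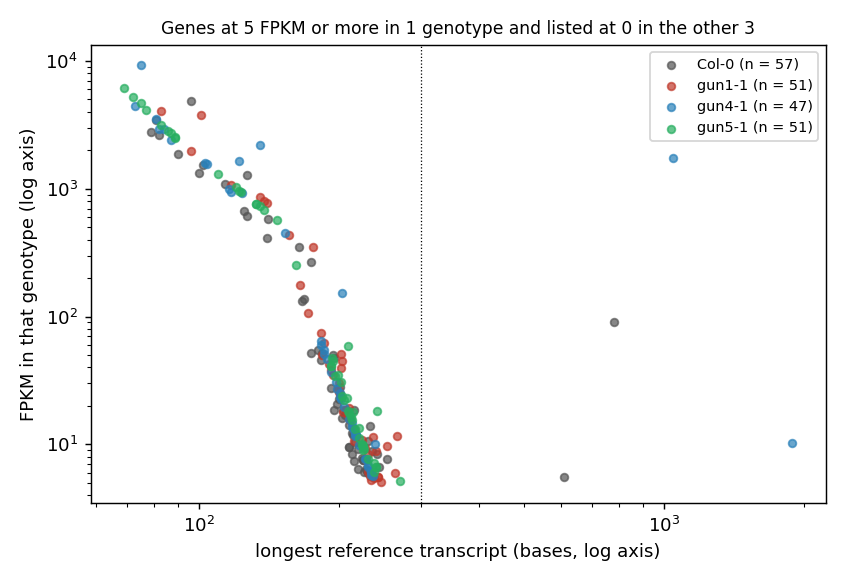
FPKM (log axis) against the longest reference transcript in bases (log axis) for genes at 5 FPKM or more in 1 genotype and at 0 in the other 3; the dotted line marks 300 bases. Left of the line the points of all 4 genotypes fall with length, all 51 gun1-1 points among them, while 2 Col-0 and 2 gun4-1 points lie to its right.

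As to the libraries, GUN1 stood at 149 FPKM in Col-0 and 137 in gun1-1, 204 in gun4-1 and 235 in gun5-1, GUN4 at 2.06, 6.09, 3.67 and 3.86, and CHLH at 192, 647, 333 and 683. The labels do not give the lesions, so these levels check no genotype. Markers of root, guard cell, phloem and epidermis were all present. The flower markers AP3 and AG stood at or under 0.142 FPKM in every genotype, and the third, PI, at 0.310 to 1.29. Over all tested genes 14.8% were lower in gun1-1, 5.94% in gun4-1 and 13.2% in gun5-1. Of 6 root markers 5 were lower in gun1-1, 3 in gun4-1 and 5 in gun5-1, and 0 were higher in any mutant. Their summed level was 3620 FPKM in Col-0, 1960.0 in gun1-1, 4226 in gun4-1 and 2620 in gun5-1, without correction for the scaling of each comparison. PYK10, the largest of them, had L of -0.91 in gun1-1, 0.13 in gun4-1 and -0.44 in gun5-1. The epidermis marker ATML1 was lower in gun1-1 and higher in gun4-1. STM of the shoot meristem was also higher in gun4-1, and FAMA of guard cells and APL of phloem were higher in gun5-1. Over all tested genes 8.0% were higher in gun4-1 and 16.2% in gun5-1. Of 4 xylem markers 2 were lower in gun1-1, 2 in gun4-1 and 1 in gun5-1. Of 3 seed markers 2 were lower in gun1-1 and 0 in gun4-1 and gun5-1, with sums of 116, 26.7, 7.41 and 21.4 FPKM in the same order. The part of these tissues in the members' levels was not tested, and in whole seedlings a change in the number of cells of a type and a change of RNA per cell cannot be told apart.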

How the data were processed

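RNA of 12 seedling libraries, 3 for each of 4 genotypes, was compared in 3 tables of 64480 transcripts, 1 mutant against Col-0 in each. Per the labels, mRNA was selected with oligo(dT) and primed with random hexamers, and the submitters' processing notes name Trimmomatic, TopHat, Cufflinks and Cuffdiff. Versions, genome build, annotation release and strand setting are, for these tables, not given in the sources used. The deposited FPKM values are the authors' combined value per genotype. The deposited log2 values are fold changes of mutant over Col-0, the deposited score is Cuffdiff's test statistic, and the p-values and q-values are the authors' own. Depth is unknown.

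The error implied by the authors' test is the log2 fold change over its statistic, or, for a p-value above 5e-05, over the matching normal quantile if this error was larger. The authors' scaling was not common to the tables: relative to the gun1-1 table, Col-0 read 1.07 times as high beside gun4-1 and 0.984 times beside gun5-1. L uses each table's own Col-0. A gene counted as called with status OK and q under 0.05. Names, positions and upstream sequences are from RefSeq TAIR10.1, matched by gene code; 99.9% of 25754 genes alone at their locus matched its ends exactly. Work used Python 3.11.15, pandas 2.3.3, numpy 2.4.6 and scipy 1.17.1, and figures matplotlib 3.10.9.

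Members and lists were chosen with earlier results of these data known. The rule for named genes took the 20 with the highest L, the 10 with the highest FPKM in gun1-1, the 3 on either side of the threshold, lists with 3 or more members, neighbours, and GUN1, GUN4 and CHLH. Because the first parts named nearly only genes listed at 0, the measured genes, their families and role groups were named after their values were seen. The tables allow no replicate-based test, interval or paired fit.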

Additional observations from a re-analysis of the deposited data

How the results depend on the processing

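The selection of 99 genes stayed within 1.5 times that number with a pseudocount of 0.1 (103, of which 87 were shared) or 5 (91, of which 71 were shared). The same held with transcripts summed (95, of which 82 were shared), a floor of 10 FPKM (76) and L of at least 1.2 (74). It also held with a window of 0.2 (70) or 0.4 (137), after centring (99) and with a common Col-0 value (99). That total is held up by the 51 genes listed at 0: the genes above 0 in Col-0, 48 as reported, were 19 with the window of 0.2, 86 with that of 0.4, 23 with L of at least 1.2 and 105 with L of at least 0.8. The total moved to 162 with a floor of 1 FPKM or no floor, to 156 with L of at least 0.8, and to 40 when the authors' q was also required. Alternatives chosen after seeing the data gave 48 with only genes above 0 in Col-0, 47 with only transcripts of at least 300 bases and 46 with status OK in all 3 tables. With pseudocount 5, L of the 48 measured genes ran from 0.53 to 2.54, and 9 of them moved by more than their implied error. Their median L was then 0.94, under the threshold of 1, so many of the 48 left the selection. With transcripts summed it ran from 0.05 to 2.54, and 2 moved by as much. The cause was not tested. No paired analysis was possible because the tables hold group values and no library columns. For the same reason no library was left out, and the spread between libraries and the limits set by depth are unknown.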
